A study of Drosophila sechellia with 6 samples.

Results

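The genes described here are the snoRNA genes of *Drosophila sechellia* that are listed in a short locus of their own. They were chosen by name and by position only: the gene name begins with snoRNA and the locus is at most 200 nt long. This rule took 89 of the 242 snoRNA genes, in a table of 17273 genes. No measured level was used to choose them. Gene names are given below without the prefix snoRNA, and positions are on the scaffolds of the genome build dsec_caf1, counted from 1.

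The study asked which genes of adult female *D. sechellia* respond to the fruit of *Morinda citrifolia*, or noni, the host plant of this species. Young adult females of the strain 14021-0428.25, reared on cornmeal medium, were kept for 24 h on instant food that held 1 g of pulp of rotten noni (noni, 3 libraries) or on control food without fruit (control, 3 libraries). Each library came from a pool of whole flies, and RNA was selected for poly(A) before sequencing. The deposited table gives 1 value per gene and diet, the FPKM (a fragment count corrected for the length of the transcript and the size of the library), pooled over the 3 libraries of that diet. No library has a value of its own and no gene has a count of fragments. The number of fragments behind a value is therefore unknown, although the study gives the reads mapped per library, and no SD, interval or test can be given for any difference below. Differences are therefore described by their size, and a difference of at least 2-fold is counted beside the same count over all genes.

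The label of the flies was checked with sex-specific genes. Of 3 yolk protein genes only *Yp2* was found by name, at 18179 FPKM in noni and 11056 FPKM in control. Of 5 genes of the male reproductive tract 3 were found, and *Acp70A* and *Acp26Aa* were listed at 0 FPKM in both diets, while *Acp36DE* was at 0 FPKM in noni and 0.0452 FPKM in control.

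Small nucleolar RNAs (snoRNAs) guide the chemical modification of other RNAs, above all ribosomal RNA, by pairing with the site to be modified. Those of the box C/D class direct methylation of the ribose, and those of the usually longer box H/ACA class direct the conversion of uridine to pseudouridine. In *D. melanogaster* most snoRNAs are cut out of introns of host genes, and some hosts carry a row of snoRNAs, each in its own intron. Mature snoRNAs have no poly(A) tail, so libraries selected for poly(A) are not designed to collect them. In the ovary of an adult female, snoRNAs take part in making the ribosomes that are loaded into eggs. The table does not name the class or the target of any of the 89 genes, and none could be matched to a named snoRNA in the RefSeq gene table, so they are described here by position, length and level.

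None of the 89 genes overlapped another gene in the table, and none lay inside the locus of a gene of 500 nt or more. The rule favours the first result and fixes the second. No 2 distinct loci of the table overlap, because genes that overlap are listed under 1 shared locus. All 153 snoRNA genes in loci over 200 nt share their locus with another gene. The longest of the 89 genes were GM27503 and GM27504 at 173 nt, and the next snoRNA gene beyond the limit, GM27473, was listed in a locus of 658 nt. No gene therefore lay close to the limit of 200 nt.

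The 89 genes were short and clustered. Their length ran from 46 nt for GM27581 to 173 nt, with a median of 81 nt. Arrays, defined as runs of these genes with gaps of at most 1000 nt, held 62 of them in 10 rows of at least 3 genes. The other 27 are called single genes. Single means apart from the other 88 only, since snoRNA genes in longer loci were not counted in arrays. With those included, 65 of the 89 genes lay within 1000 nt of the locus of another snoRNA gene. The spacing within arrays was regular: of 52 gaps between neighbours, 46 were between 140 and 200 nt, and the median gap was 164 nt. The longest array, GM27506 to GM27521 on scaffold 1 from 11085690 to 11089683, held 16 genes of 66 to 87 nt. Genes of up to 100 nt made up 58 of the 62 genes in arrays and 12 of the 27 single genes. Within arrays, 28 genes had exactly the same length as another gene of their array. The sequences of these genes were not analysed here, so it is unknown whether they are copies that could share reads.

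One gene stood far above the rest. GM27634, a single gene of 96 nt on scaffold 9 from 164676 to 164771, was at 46057 FPKM in noni and 39698 FPKM in control. It was the highest of all 17273 genes in both diets. The gene next in rank in the table was GM27017 in noni at 27740 FPKM and GM18276 in control at 35140 FPKM. The diets differed little in GM27634, with a log2 change of 0.21 (log2 of noni over control after 1 FPKM is added to both, the scale of every log2 change below). In RNA of whole flies, fewer cells that make a snoRNA and less of it per cell cannot be told apart. FPKM divides fragments by length, which lifts short genes. When FPKM was multiplied by the locus length, GM27634 was at rank 127 in noni and 152 in control. A locus can span introns or several genes, so this product is too high for such genes. The length that Cuffdiff divided by is not listed. Where that length is shorter than the locus, the product is too high for a short gene as well. These are therefore not ranks by number of fragments. GM27634 alone made up 77.7% of the summed FPKM of the 89 genes in noni and 77.5% in control. The nearest gene, GM15787, lay 671 nt away, at 727 FPKM in noni and 827 FPKM in control.

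Most of the other genes were not seen at all. In noni 33 of the 89 genes were above 0 FPKM, and in control 28 were. Both diets had a value above 0 for 25 genes, only noni for 8 and only control for 3, and the other 53 (59.6%) were listed at 0 FPKM in both diets. Cuffdiff gave 33 genes the status OK, which it gives to genes with enough fragments for its test, and 56 the status NOTEST. A listed 0 can be a failed estimate as well as a lack of reads, and fragment counts are not listed, so these genes are not called absent. The other 801 genes with loci of up to 200 nt were at 0 FPKM in both diets in 60.7% of cases, against 17.1% of all genes. That share mixes unlike classes: 253 of the 255 short tRNA genes and 7 of the 133 short rRNA genes were at 0 FPKM in both diets. Among the 395 short genes of no named RNA class it was 57.0%.

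Whether a gene was seen went with its length. Of the 41 genes of up to 80 nt, 7 were above 0 FPKM in either diet, and of the 29 genes of 81 to 100 nt, 15 were. Of 6 genes of 101 to 130 nt there were 2, and of 13 genes of 131 to 173 nt there were 12, GM27620 (136 nt) being the exception. The lowest value above 0 also went with length. It was 129 FPKM among genes of up to 80 nt and 6.22 FPKM among genes of 131 to 173 nt. Other genes of the table from 131 to 173 nt had a lowest value of 2.85 FPKM. From 46 to 80 nt only 2 of 233 other genes were above 0 FPKM, with a lowest value of 268 FPKM. Most of these 233 belong to named RNA classes such as tRNA. Only 26 belong to none, and both genes seen are among those 26. The reads of the study were longer than the shortest locus, that of GM27581 at 46 nt. The parts of the read length and of Cuffdiff's correction for length in this pattern were not tested.

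**Figure D1:**
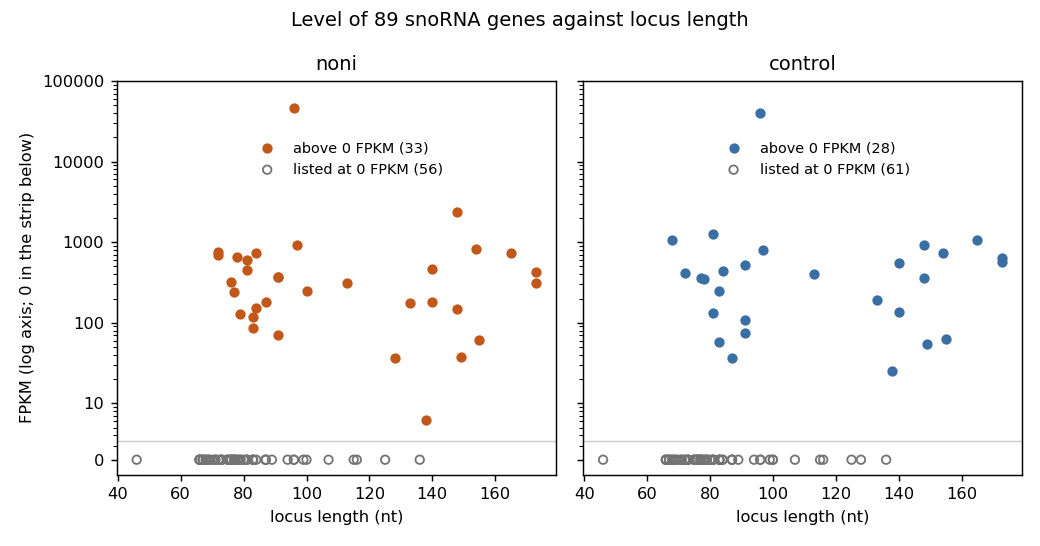
FPKM (log axis, with values of 0 in the strip below the line) against locus length in nt for the 89 snoRNA genes, noni at left and control at right; each point is 1 gene and 1 pooled value. Above 0 FPKM are 33 genes in noni and 28 in control, nearly all genes over 130 nt among them, and GM27634 at 96 nt stands above all others in both panels.

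Among the 25 genes above 0 FPKM in both diets, 11 were higher and 14 lower on noni, with a median log2 change of -0.12 and quartiles of -0.59 and 0.75. Over all genes above 0 FPKM in both diets the median was 0.04. The median size of the change, in either direction, was 0.60 for the 25 genes, 0.22 for all genes, 0.66 for the other genes with loci of up to 200 nt and 0.56 for those of them that belong to no named RNA class. At least 2-fold higher on noni were 4 of the 25, where 1.28% of all genes and 7.43% of the other short genes were. At least 2-fold lower were 3 of the 25, where 2.35% of all genes and 13.4% of the other short genes were. Of the 269 other short genes seen in both diets, 116 are rRNA genes, of which 1 was at least 2-fold higher and 19 at least 2-fold lower. Among the 135 short genes of no named RNA class, 13.3% were at least 2-fold higher and 10.4% at least 2-fold lower. Both directions together made 7 of the 25, where 3.63% of all genes and 20.8% of the other short genes differed as much, and no test stands behind these shares.

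The 4 genes that were at least 2-fold higher on noni all lay in arrays. GM27591 (91 nt) had the largest log2 change, 2.28, with 369 FPKM in noni and 75.3 FPKM in control. GM27561 (81 nt) was at 597 FPKM in noni and 133 FPKM in control, a log2 change of 2.16. GM27480 (148 nt), on scaffold 1 from 2621438 to 2621585, was at 2383 FPKM in noni and 925 FPKM in control, a log2 change of 1.36. It was the most abundant of the 4 and, after GM27634, the highest of the 89 genes in noni. GM27530 (83 nt) was just past the limit with a log2 change of 1.01, at 118 FPKM in noni and 58.0 FPKM in control, and its status was NOTEST. It was below the limit when log2 changes were centred on the median of all genes or when 10 FPKM was added in place of 1.

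At least 2-fold lower on noni were 2 single genes and 1 gene of an array. GM27695 (138 nt), a single gene on scaffold 27, was at 6.22 FPKM in noni and 25.6 FPKM in control, a log2 change of -1.88, and it was the lowest of the 25 genes in both diets. GM27589 (83 nt) was at 85.9 FPKM in noni and 248 FPKM in control, a log2 change of -1.52. GM27536 (148 nt) was at 150 FPKM in noni and 356 FPKM in control, a log2 change of -1.24. GM27536 counts as single here, but it lay 106 nt from a longer locus that holds another snoRNA gene. Both GM27589 and GM27591, which differed in opposite directions, belong to the same array on scaffold 5.

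The remaining 18 genes differed by less than 2-fold. On the higher side were GM27495 (655 FPKM in noni, 350 FPKM in control), GM27587 (744 FPKM in noni, 438 FPKM in control) and GM27519 (697 FPKM in noni, 414 FPKM in control), with log2 changes of 0.90, 0.76 and 0.75. GM27537 followed with a log2 change of 0.38, at 179 FPKM in noni and 137 FPKM in control. On the lower side were GM27504 (309 FPKM in noni, 571 FPKM in control) and GM27503 (424 FPKM in noni, 642 FPKM in control), with log2 changes of -0.88 and -0.60. These 2 genes have the same length and each lies 276 nt from a tRNA gene, so they may be copies between which the counting could divide reads. GM27483, GM27592 and GM27491 had log2 changes of -0.60, -0.59 and -0.55. GM27570 (165 nt), among the most abundant, was at 732 FPKM in noni and 1060 FPKM in control, a log2 change of -0.53.

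Abundant genes with near-equal values in both diets were GM27541 (925 FPKM in noni, 792 FPKM in control), GM27658 (820 FPKM in noni, 726 FPKM in control) and GM27485 (470 FPKM in noni, 546 FPKM in control). Their log2 changes were 0.22, 0.18 and -0.22. The other 4 genes of the 25, GM27499, GM27563, GM27565 and GM27479, had log2 changes of -0.48, -0.37, -0.12 and -0.03.

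**Figure D2:**
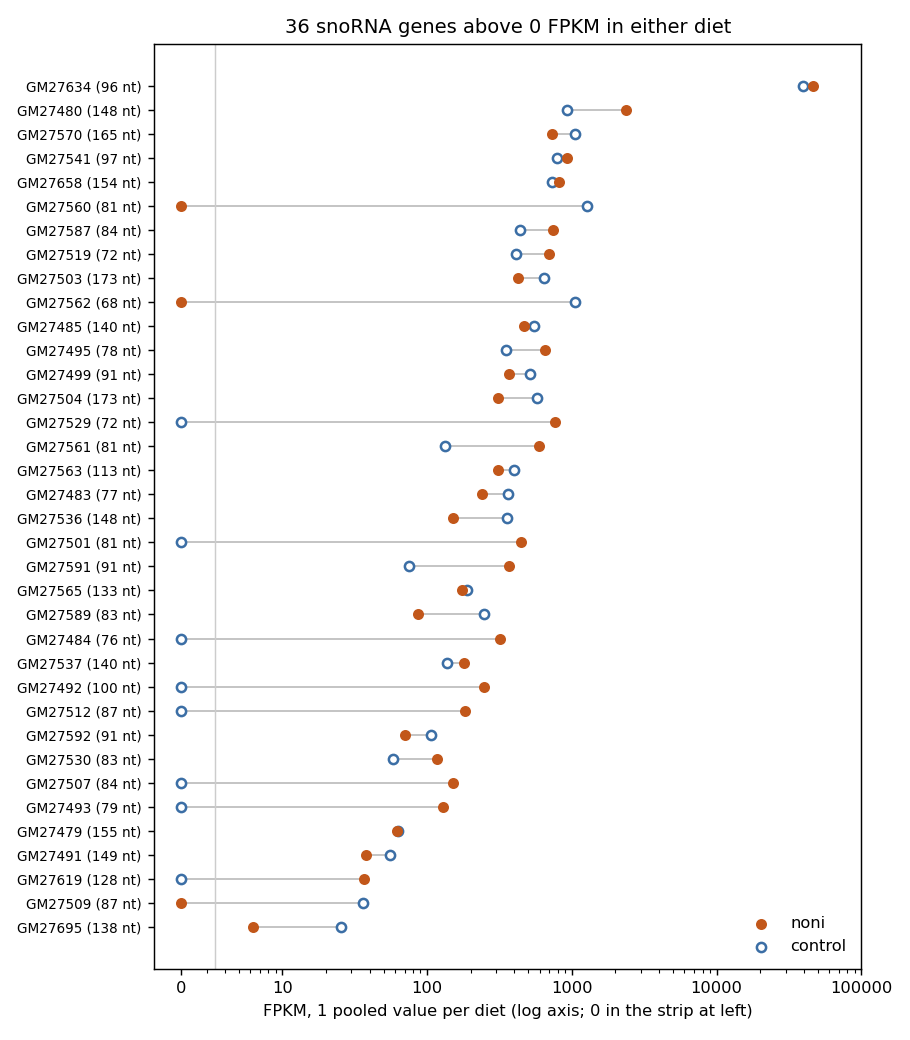
FPKM in noni (filled points) and control (open points) on a log axis for the 36 snoRNA genes above 0 FPKM in either diet, ordered by their mean, with locus length in brackets and values of 0 in the strip at left; each point is 1 pooled value. GM27634 is at 46057 FPKM in noni and 39698 FPKM in control, and 11 genes have 1 of their points at 0.

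Genes listed at 0 FPKM in 1 diet only made up 11 of the 36 genes seen, and some had high values in the other diet. Only in noni were 8 of these 36 seen, where 3.11% of all genes and 5.40% of the other short genes were. Only in control were 3 of the 36 seen, where 4.59% of all genes and 9.21% of the other short genes were. Among short genes of no named RNA class these shares were 9.41% in noni and 11.2% in control. All of these shares are of genes above 0 FPKM in either diet. No fold is given for genes listed at 0 FPKM in 1 diet. In noni the highest of the 8 was GM27529 (72 nt) at 764 FPKM, followed by GM27501 (447 FPKM), GM27484 (319 FPKM) and GM27492 (246 FPKM), each listed at 0 FPKM in control. GM27512 was at 182 FPKM, GM27507 at 151 FPKM, GM27493 at 129 FPKM and GM27619, the only one of the 8 over 100 nt, at 36.9 FPKM in noni. Listed at 0 FPKM in noni were GM27560 (81 nt) with 1276 FPKM in control, GM27562 (68 nt) with 1053 FPKM in control and GM27509 (87 nt) with 36.2 FPKM in control. GM27560 and GM27562 had the highest and the third highest control values of the 89 genes after GM27634. Of these 11 genes 9 had the status OK, and GM27493 and GM27509 had NOTEST.

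Counted with these 11 genes, 12 of 36 genes were at least 2-fold higher on noni, where 1.86% of all genes above 0 FPKM in either diet were, and 6 were at least 2-fold lower, where 3.34% were. Each of the 11 passes the limit through its listed 0, once 1 FPKM is added. They make up 8 of the 12 and 3 of the 6, so these counts largely restate the zeros. The same shares were 11.7% and 20.6% among the other short genes, 126 of which are rRNA genes with 1 higher and 29 lower, and 20.0% and 19.4% among short genes of no named RNA class. Both directions together made 18 of 36, where 5.20% of all genes and 32.4% of the other short genes differed as much. The median log2 change over the 36 genes was 0.19, of the other sign than over the 25 genes seen in both diets, since more of the genes seen in 1 diet were seen in noni.

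Of the 10 arrays, 7 had at least 1 gene above 0 FPKM and 3, with 10 genes in all, had none. The array on scaffold 3 from 5339782 to 5340752 was the only one in which every gene was seen. In order along the scaffold, GM27560 was seen only in control, GM27561 was higher on noni, GM27562 was seen only in control, and GM27563 was at 309 FPKM in noni and 399 FPKM in control. The sum of these 4 genes was 906 FPKM in noni and 2861 FPKM in control. It was the only array with a lower sum on noni.

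The array GM27479 to GM27485 on scaffold 1 from 2621112 to 2622897 held genes of up to 155 nt and had 5 of 7 genes above 0 FPKM. Its sum, 3473 FPKM in noni and 1898 FPKM in control, was carried by GM27480. Its neighbour GM27479, 171 nt away, was at 61.6 FPKM in noni and 63.0 FPKM in control. The other neighbour, GM27481, was at 0 FPKM in both diets.

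In the array GM27492 to GM27502 on scaffold 1 from 8026353 to 8028888, 5 of 11 genes were seen, 3 of them only in noni. The sum was 1848 FPKM in noni and 868 FPKM in control. In the 16 genes of GM27506 to GM27521 only 4 were seen, and the sum was 1029 FPKM in noni and 450 FPKM in control, most of it from GM27519. In the array GM27587 to GM27592 on scaffold 5 from 312108 to 313409, 4 of 6 genes were seen, all in both diets, and the sum was 1270 FPKM in noni and 868 FPKM in control. The sum of GM27528 to GM27531 on scaffold 2 was 882 FPKM in noni and 58.0 FPKM in control, nearly all of the noni value from GM27529. In GM27538 to GM27541, also on scaffold 2, only GM27541 was seen.

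Of 52 pairs of neighbours, 9 had both genes above 0 FPKM in at least 1 diet. In 6 of these 9 pairs the genes differed in opposite directions between the diets and in 3 in the same direction. These few pairs share genes and some rest on small differences, such as that of GM27479, so nothing is read from this count.

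**Figure D3:**
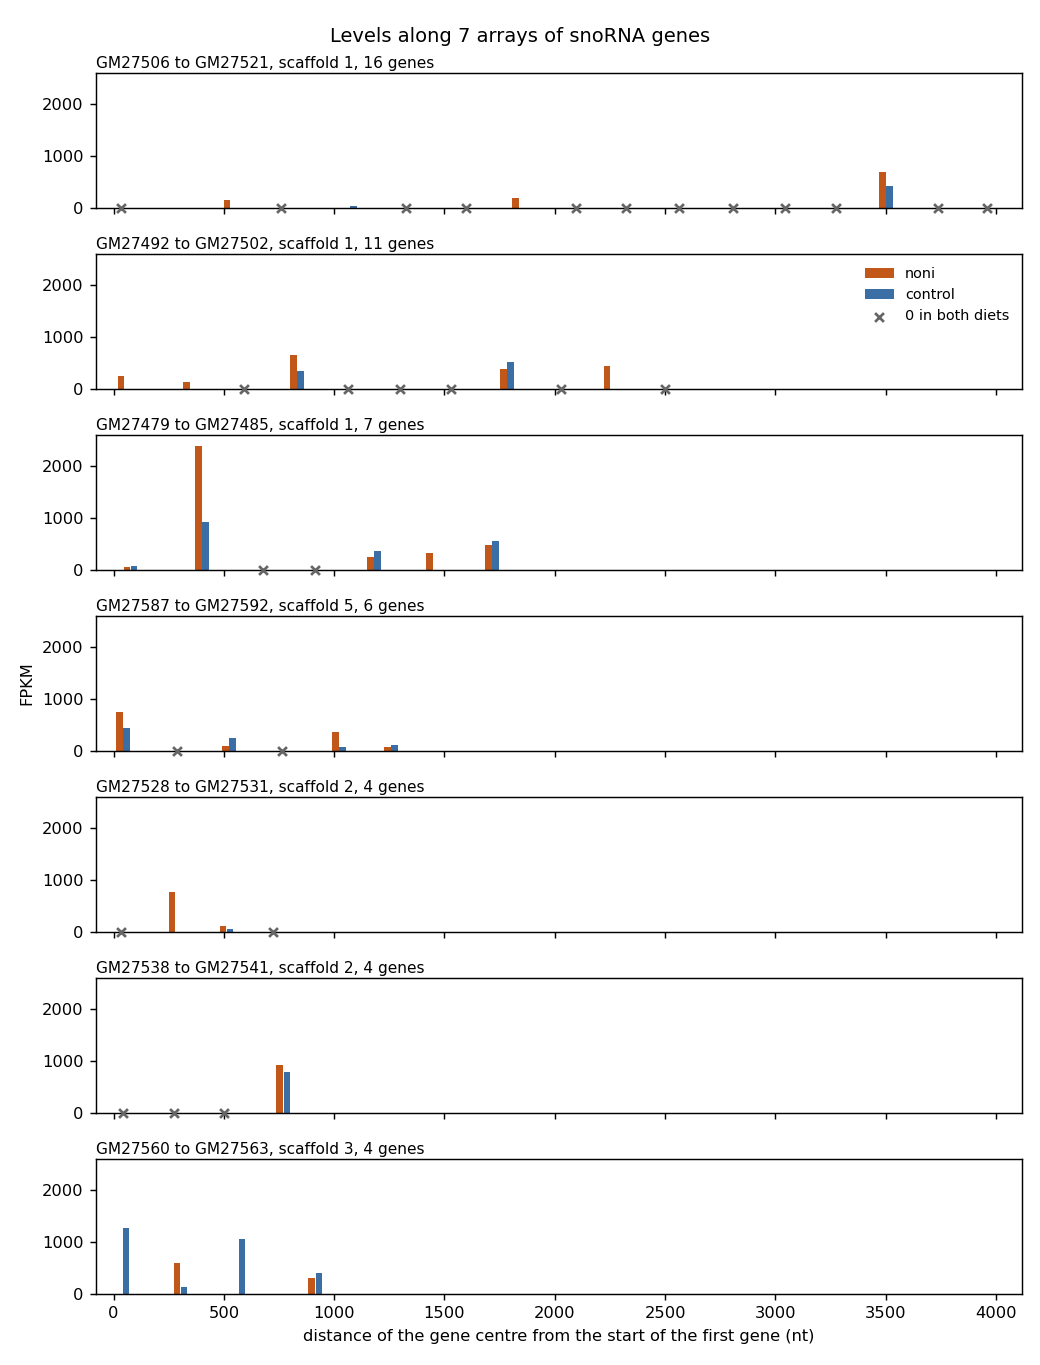
FPKM in noni (left bar of each pair) and control (right bar) against distance in nt from the start of the first gene, for the 7 arrays with a gene above 0 FPKM; crosses mark genes at 0 FPKM in both diets, and each bar is 1 pooled value. GM27480 reaches 2383 FPKM in noni, and in the array GM27560 to GM27563 the sum is 906 FPKM in noni and 2861 FPKM in control.

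Of the 27 single genes, 11 were above 0 FPKM, of which 10 were among the 15 single genes over 100 nt and the other was GM27634. Seen in both diets were 10 single genes, 3 higher and 7 lower on noni, and all of them but GM27695 and GM27536 differed by less than 2-fold. In arrays, 15 genes were seen in both diets, 8 higher and 7 lower on noni, and 10 more in 1 diet only. Array genes are also shorter, so these counts mix position with length, and the 2 kinds were not compared at equal length.

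Summed over all 89 genes, FPKM was 59262 in noni and 51256 in control, a ratio of 1.16. Without GM27634 the sums were 13205 and 11558 FPKM, a ratio of 1.14. The sum over the whole table had a ratio of noni to control of 0.938, and the 89 genes made up 2.93% of it in noni and 2.38% in control.

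For snoRNA genes in longer loci, which share a locus with another gene, the picture leaned to lower values on noni. Of the 153, 39 were at 0 FPKM in both diets and 89 were above 0 FPKM in both, with 29 higher and 60 lower on noni and a median log2 change of -0.40. Their summed FPKM had a ratio of 0.705. Of the 18 spliceosomal snRNA genes with loci of up to 200 nt, 17 were seen, all in both diets, with 9 higher and 8 lower on noni and a median log2 change of 0.10. The length of a gene within a shared locus is not listed, so the kinds of snoRNA gene could not be compared at equal length, and the differences between these sets were not tested.

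**Figure D4:**
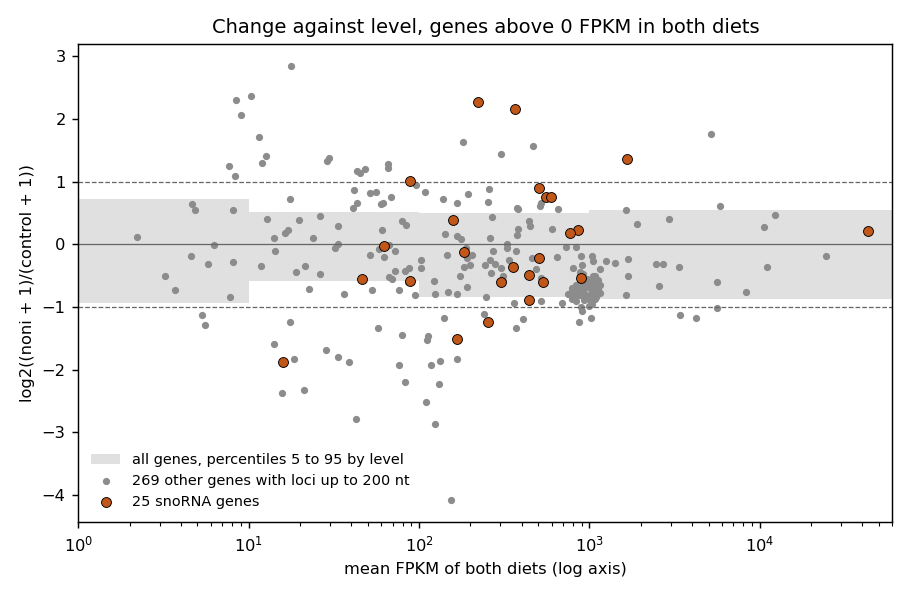
Log2 change of noni over control, with 1 FPKM added to both, against the mean FPKM of both diets (log axis) for genes above 0 FPKM in both diets: 25 snoRNA genes (large points), 269 other genes with loci of up to 200 nt (small points) and percentiles 5 to 95 of all genes in 4 ranges of level (grey). Dashed lines mark 2-fold differences; 4 snoRNA genes lie on or above the upper line and 3 below the lower one.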

How the data were processed

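Whole adult females were measured by RNA-seq, with 3 libraries per diet, grouped by the diet in their labels. Reads were checked with FastQC and mapped with Bowtie2 to dsec_caf1, and Cuffdiff was run on the Ensembl annotation of that build; tool versions are not given in the sources used here. The authors deposited FPKM as estimated by Cuffdiff for each diet over its libraries together, normalized geometrically and corrected for library size and sequence bias. The fold changes, test statistics, p-values and q-values of the authors' own comparison are also in the table and were not used. The study gives the mapped reads per library; the table gives no fragment count of any gene.

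Locus starts were read as counted from 0, since 47.5% of the locus lengths (end minus start) are then multiples of 3, against 26.8% otherwise. Log2 changes were computed after 1 FPKM was added to both diets, and medians and sums were taken over all genes of a set. A set is described by counts beside the background of all genes, with no test. Counting was tested on simulated data. Calculations used Python 3.11.15, numpy 2.4.6, pandas 2.3.3 and matplotlib 3.10.9.

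The members and lists were chosen with earlier results of these data known. Named genes are the 10 with the highest mean, the 8 largest differences each way among genes seen in both diets, the 4 highest seen in 1 diet only (each way), every gene of status OK at 0 FPKM in a diet, and those next to the length limit; the other genes seen were named to account for every member. Of 23 names of snoRNP proteins, assembly factors and snoRNA host genes, 0 were found in the table or among RefSeq symbols (ASM438219v2), so that list was not analysed here. Alternatives were another pseudocount, a filter on low values, status OK only, other length limits, 1 gene per locus, centring and other folds.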

Additional observations from a re-analysis of the deposited data

How the results depend on the processing

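The number of genes with an at least 2-fold difference was 18 of 36. It was 7 of 25 when only genes above 0 FPKM in both diets were counted. That setting leaves out the 11 genes seen in 1 diet only, all of which pass the limit through their 0. It was 11 of 26 among genes that averaged 100 FPKM or more. The number stayed within 1.5 times of 18 under the other settings. Some of these could not change it, because they kept the same 36 genes. They were loci of up to 300 nt, 1 gene per locus and a mean of at least 10 FPKM. The median log2 change of 0.19 became -0.12 with only the genes above 0 FPKM in both diets, 0.83 with loci of up to 100 nt and 0.38 with loci of up to 150 nt. The ratio of summed FPKM and the number of genes seen in 1 diet only moved little under each setting run. Again, not every setting could move them. For the ratio, loci of up to 300 nt and 1 gene per locus kept the same 89 genes. For the number seen in 1 diet, counting values under 1 FPKM as 0 altered no gene, as the lowest value above 0 was 6.22 FPKM. The number inside a host gene was 0 in each setting, which the listing of overlapping genes under 1 locus fixes in advance. Of 80 recomputed log2 changes of 20 named genes, 76 were within 0.1, 4 moved (GM27695 and GM27591, with another pseudocount) and 0 changed sign. No paired analysis was possible because the table has no value of a single library, and leaving out a library was not run for the same reason. A high FPKM of a short gene may rest on few fragments, whose number is not listed.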

Other observations

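Some of the genes lay close to genes of very different level. GM27541, at 925 FPKM in noni and 792 FPKM in control, lay 98 nt from GM14186, which was at 10878 FPKM in noni and 13832 FPKM in control. GM27565, at 175 FPKM in noni and 190 FPKM in control, lay 537 nt from GM12554, which was at 3292 FPKM in noni and 4189 FPKM in control. GM27570, at 732 FPKM in noni and 1060 FPKM in control, lay 872 nt from GM12642, which was at 0.408 FPKM in noni and 0.838 FPKM in control. GM27503 and GM27504 each lay beside a tRNA gene listed at 0 FPKM in both diets. These neighbours were picked after their values had been seen.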
